A study of Mus musculus with 12 samples.

Results

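Transcripts of 7 genes that mark the capillary endothelium of the mouse lung were followed in lung, and beside it in liver, 6 h after CLP or sham surgery. CLP is read here as cecal ligation and puncture, a surgical model of abdominal sepsis. The genes were chosen by symbol, with earlier results of these data known, and matched by identifier in the deposited table. All 7 were found among 55414 gene identifiers. Car4 (ENSMUSG00000000805), Ednrb (ENSMUSG00000022122) and Apln (ENSMUSG00000037010) mark aerocytes. Aplnr (ENSMUSG00000044338), Gpihbp1 (ENSMUSG00000022579), Plvap (ENSMUSG00000034845) and Kit (ENSMUSG00000005672) mark general capillary cells. The 4 groups were lung after CLP, lung after sham, liver after CLP and liver after sham, with 3 libraries each. All came from wild-type C57BL/6J mice, whose age and sex the labels do not give. The labels do not say that the libraries of a group came from separate mice, so the p-values measure the spread between these libraries, which may be technical.

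The capillary bed of the lung alveolus is built of a pair of endothelial cell types. Aerocytes are large, thin cells specialised for gas exchange, and general capillary cells act in vasomotor control and as progenitors that maintain and repair the bed. Apelin, made from Apln, and its receptor Aplnr stand on opposite sides of this division, so that aerocytes carry the ligand and general capillary cells the receptor. Neither set of genes is exclusive to the lung: Gpihbp1 and Plvap are used by capillaries of many organs, and Kit is also found on mast cells and blood progenitors.

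Total counts ran from 10559895 to 15854117 per library, and levels are given in CPM, the counts divided by library size, with sizes scaled within each organ unless library totals are named. On library totals, a gene with 3 counts stood at 0.189 to 0.284 CPM, depending on the library. The alveolar type 2 and hepatocyte lists followed the organ labels. The liver sinusoidal list did so after sham (216 to 243 CPM in lung, 320 to 401 CPM in liver). It did not after CLP (324 to 435 CPM in lung, 173 to 220 CPM in liver). The summed level of 7 alveolar type 2 genes was 21699 to 25335 CPM in CLP lung and 25639 to 27712 CPM in sham lung, against 87.0 to 104 CPM in CLP liver and 77.8 to 81.9 CPM in sham liver. The summed level of 7 hepatocyte genes was 60.9 to 75.5 CPM in CLP lung and 29.9 to 117 CPM in sham lung, against 79403 to 100124 CPM in CLP liver and 63300.1 to 87914 CPM in sham liver. These are whole-organ libraries, in which fewer cells of a type and less RNA per cell cannot be told apart.

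A promoter sequence from RefSeq (GRCm38.p6) was at hand for 4 of the 7 genes. Those of the aerocyte markers are shown because the 3 genes were not called in 1 direction in lung. The Apln call depended on the settings, as given below, and a link between motifs and direction was not tested. Each sequence is the 250 bases before the annotated start, read 5′ to 3′ on the strand of the gene: Car4 at chr11:84957504-84957753 on the plus strand, Ednrb at chr14:103843702-103843951 on the minus strand, and Apln at chrX:48034854-48035103 on the minus strand. Capitals mark matches to any of 5 motifs that were searched on both strands.
Car4: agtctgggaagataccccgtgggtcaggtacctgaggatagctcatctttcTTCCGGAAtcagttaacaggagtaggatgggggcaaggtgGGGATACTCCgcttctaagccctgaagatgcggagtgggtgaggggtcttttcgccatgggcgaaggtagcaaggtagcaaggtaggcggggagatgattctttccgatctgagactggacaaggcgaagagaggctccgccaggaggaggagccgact
Ednrb: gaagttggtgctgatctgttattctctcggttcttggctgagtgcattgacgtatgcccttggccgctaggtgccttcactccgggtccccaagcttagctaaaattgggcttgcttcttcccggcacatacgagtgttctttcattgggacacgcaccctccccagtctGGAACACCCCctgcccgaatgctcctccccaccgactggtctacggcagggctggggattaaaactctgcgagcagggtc
Apln: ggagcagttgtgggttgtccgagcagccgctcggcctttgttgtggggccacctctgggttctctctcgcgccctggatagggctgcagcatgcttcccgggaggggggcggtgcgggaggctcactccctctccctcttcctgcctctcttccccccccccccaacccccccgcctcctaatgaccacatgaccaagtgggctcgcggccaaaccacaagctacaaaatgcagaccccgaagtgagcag
The motifs were the hypoxia response element core ACGTG, the ETS core CCGGAA, the AP-1 motif TGANTCA, the GATA motif AGATAA and the NF-kB-like motif (GGG, any 5 bases, CC). Car4 held 2 ETS matches, which overlap on opposite strands, and 1 NF-kB-like match. Ednrb and the Kit promoter (chr5:75574737-75574986, plus strand) held 1 NF-kB-like match each, and Apln held no match to the 5 motifs. Of 32851 promoter windows of this length, 16.6% held ACGTG, 12.03% CCGGAA, 6.75% TGANTCA, 9.99% AGATAA and 45.8% the NF-kB-like motif. GC content was 56.4% for Car4, 56.8% for Ednrb, 65.2% for Apln and 70.8% for Kit. The bases just after the RefSeq start of Car4 lie in no GENCODE M21 transcript of that gene, so this window may not be the start used in lung.

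Within the aerocyte set, the carbonic anhydrase and the endothelin receptor fell in CLP lung, while the apelin ligand rose. Car4 encodes a membrane-anchored carbonic anhydrase that faces the blood and interconverts carbon dioxide and bicarbonate. Its level was 104, 120.1 and 137 CPM in the CLP lung libraries, against 239, 199 and 206 CPM in the sham lung libraries. The groups did not overlap, and the CLP mean was 56.1% of the sham mean. The change was -0.83 ± 0.12 on the log2 scale (± standard error, n = 3 each; adjusted p = 0.000895, edgeR quasi-likelihood test).

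Ednrb encodes the endothelin B receptor, which in lung takes up circulating endothelin and couples to nitric oxide release in endothelium. Its level was 49.1, 41.5 and 63.5 CPM in CLP lung, against 155, 134 and 152 CPM in sham lung. Every CLP library stood below every sham library, and the CLP mean was 35.01% of the sham mean. The log2 change was -1.52 ± 0.15 (adjusted p = 0.000208, edgeR).

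Apln encodes the precursor of apelin peptides, a secreted ligand that acts on vessels and heart. Its level was 42.2, 51.7 and 28.1 CPM in CLP lung, against 24.4, 16.8 and 28.4 CPM in sham lung. The groups overlapped, since the lowest CLP library lay just under the highest sham library. The CLP mean was 175% of the sham mean, a log2 change of 0.81 ± 0.26 (adjusted p = 0.0357, edgeR). Among other settings, this call was lost with upper-quartile scaling (adjusted p = 0.0554), with library totals (0.0545), with no filter on low counts (0.182) and without CLP replicate 1 (0.0885), CLP replicate 2 (0.0841), sham replicate 1 (0.0710) or sham replicate 2 (0.0978), all in edgeR, with log2 changes of 0.62 to 0.84.

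**Figure D1:**
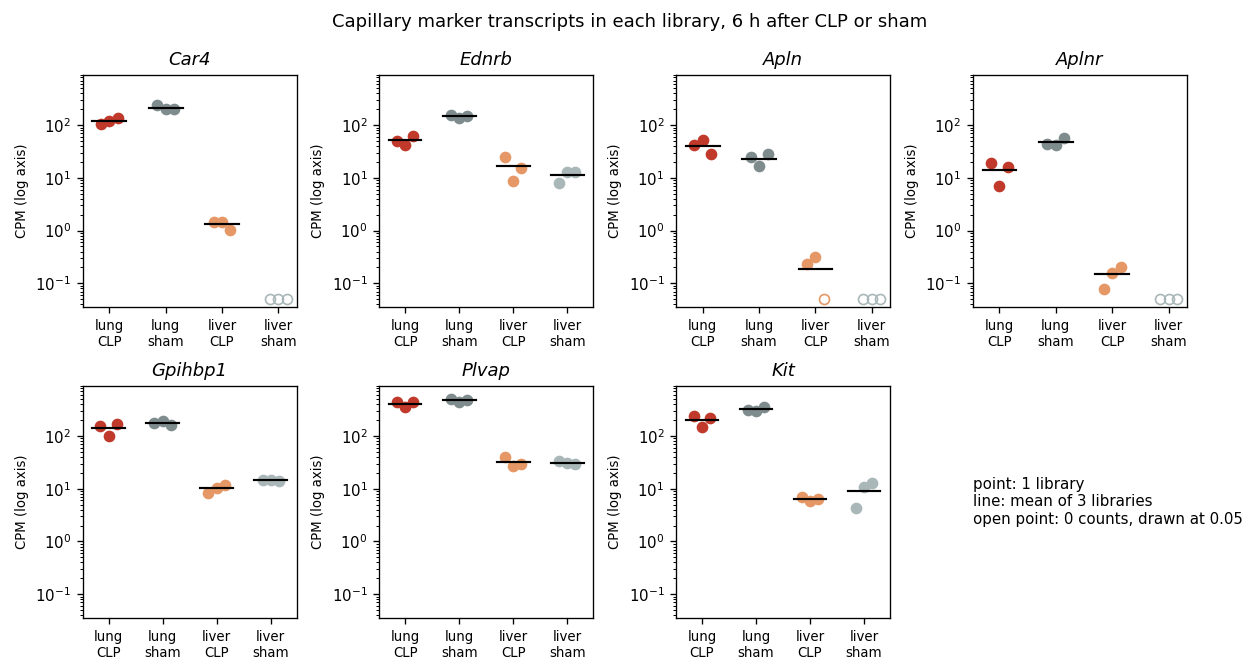
Level of each capillary marker in CPM (log axis) in the 3 libraries of CLP lung, sham lung, CLP liver and sham liver; points are libraries and lines are means. In lung, Car4, Ednrb, Aplnr, Plvap and Kit were lower in every CLP library than in every sham library; in sham liver, Car4, Apln and Aplnr had 0 counts.

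Of the general capillary markers, the apelin receptor and Kit fell in CLP lung, and Gpihbp1 and Plvap did not pass the test. Aplnr encodes the G protein-coupled receptor for apelin. Its level was 19.1, 7.12 and 16.2 CPM in CLP lung, against 43.2, 41.5 and 56.5 CPM in sham lung. The groups did not overlap, and the CLP mean was 30.1% of the sham mean. The log2 change was -1.73 ± 0.32 (adjusted p = 0.00416, edgeR). Per kilobase of exon, the ligand Apln stood at 8.93 to 16.4 CPM per kb in CLP lung and 5.35 to 9.03 CPM per kb in sham lung, and the receptor at 1.93 to 5.17 CPM per kb in CLP lung and 11.2 to 15.3 CPM per kb in sham lung. The ligand was thus above the receptor in every CLP library and below it in every sham library.

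Kit encodes the receptor tyrosine kinase for stem cell factor. Its level was 236, 149.8 and 216 CPM in CLP lung, against 317, 296 and 351 CPM in sham lung. The groups did not overlap, and the CLP mean was 62.4% of the sham mean, a log2 change of -0.68 ± 0.16 (adjusted p = 0.0102, edgeR). Without sham replicate 3 the change was -0.58 and just missed the threshold (adjusted p = 0.0502, edgeR). Mast cells also carry Kit. The histamine-forming enzyme gene Hdc, the 1 gene of the mast cell list that passed the filter, rose in CLP lung (log2 change 1.97, adjusted p = 0.000261, edgeR). Whether this Hdc came from mast cells was not tested. The other 6 mast cell genes together came to 1.09 to 1.17 CPM in CLP lung and 0.672 to 1.22 CPM in sham lung, near the level of a few counts.

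Gpihbp1 encodes the protein that carries lipoprotein lipase across capillary endothelium and holds it on the luminal face. Its level was 156, 98.4 and 172 CPM in CLP lung, against 174, 192 and 164 CPM in sham lung. The groups overlapped, with 1 low CLP library, and the log2 change was -0.32 ± 0.19 (adjusted p = 0.215, edgeR). Plvap encodes the protein of the diaphragms that span endothelial caveolae and fenestrae. Its level was 438, 348 and 438 CPM in CLP lung, against 494, 439.6 and 476 CPM in sham lung. Every CLP library was below every sham library by a small margin, with a log2 change of -0.20 ± 0.11 (adjusted p = 0.173, edgeR). Plvap passed the threshold with upper-quartile scaling (-0.31, adjusted p = 0.0403) and with library totals (-0.31, adjusted p = 0.0458), in edgeR.

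In lung, then, 1 marker rose, 4 fell and 2 did not pass the test, of 7 tested. Of all 15441 genes tested in lung, 23.9% were called higher and 24.9% lower at an adjusted p below 0.05. By non-overlap, 5 of the 7 had every CLP library below every sham library and none had every CLP library above, against 31.1% and 28.6% of all genes tested. The median log2 change of the 7 markers was -0.68, against -0.03 over all genes. Because the 7 genes were chosen with earlier results of these data known, these shares and medians are a description only. The 7 genes were not tested as a group.

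Among the CLP lung libraries, replicate 2 was lowest for Ednrb, Aplnr, Gpihbp1, Plvap and Kit and highest for Apln, while Car4 was lowest in replicate 1. Replicate 2 also had the highest summed neutrophil level of the CLP lung libraries and the lowest summed alveolar type 1 level. Per library, the neutrophil genes summed to 8131, 8725 and 6277 CPM in CLP lung, against 1082, 947 and 986 CPM in sham lung. The alveolar type 1 genes summed to 3411, 2826 and 4005 CPM in CLP lung, against 4841, 4719 and 4661 CPM in sham lung. The part of these in the marker changes was not tested. Without CLP replicate 2, Car4, Ednrb, Aplnr and Kit were still called lower.

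Per kilobase of exon, Plvap was the most abundant of the 7 in both lung groups, at 205 ± 26.2 CPM per kb after CLP and 236 ± 13.9 CPM per kb after sham (SD, n = 3 each). In CLP lung the order below it was Car4 (61.3 ± 8.45), Gpihbp1 (55.6 ± 15.1), Kit (22.5 ± 5.07), Apln (12.9 ± 3.77), Ednrb (12.04 ± 2.62) and Aplnr (3.83 ± 1.69), all in CPM per kb. There Car4 and Gpihbp1 overlapped, as did Apln and Ednrb. In sham lung the order was Car4 (109 ± 11.0), Gpihbp1 (69.2 ± 5.62), Kit (36.1 ± 3.09), Ednrb (34.4 ± 2.64), Aplnr (12.7 ± 2.23) and Apln (7.38 ± 1.87), in the same unit. There Kit and Ednrb overlapped and the other neighbours did not. Apln was thus last of the 7 in sham lung, and Aplnr last in CLP lung.

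The markers were also set against a list of pan-endothelial genes, as a view relative to those genes and not as a measure of endothelial content. The geometric mean of 12 pan-endothelial genes was 258, 235 and 264 CPM in CLP lung, against 327, 308 and 332 CPM in sham lung, so that the groups did not overlap. With libraries scaled to that mean, Ednrb (-1.17 ± 0.12, adjusted p = 3.07e-05), Aplnr (-1.39 ± 0.30, adjusted p = 0.00703) and Car4 (-0.48 ± 0.12, adjusted p = 0.00612) were still lower and Apln (1.19 ± 0.29, adjusted p = 0.0113) was higher in CLP lung, by edgeR. Kit then missed the threshold at -0.33 ± 0.13 (adjusted p = 0.0536, edgeR). Gpihbp1 and Plvap took the other sign, at 0.02 ± 0.17 and 0.15 ± 0.10, and neither passed the test. This scaling moves the median of all genes to 0.32 on the log2 scale, so changes under it are relative to the 12 genes and not to the whole library. The 12 genes themselves changed in CLP lung before this scaling. By edgeR 6 fell, 3 rose and 3 were not called, with log2 changes from -1.54 for Tek to 0.88 for Cldn5. The list includes Ramp2 and Egfl7, whose counts are uncertain because they share exon sequence on the same strand with Vps25 and Gm20532. The part of these genes' own changes in the scaled values was not tested.

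As a ratio to the same endothelial mean, Ednrb was 0.190, 0.176 and 0.241 in CLP lung, against 0.472, 0.434 and 0.458 in sham lung. Car4 was 0.404, 0.510 and 0.520 in CLP lung, against 0.732, 0.645 and 0.622 in sham lung. Both aerocyte genes kept groups that did not overlap. Apln was 0.163, 0.220 and 0.106 in CLP lung, against 0.0745, 0.0547 and 0.0858 in sham lung. On this scale every CLP library exceeded every sham library for Apln, which they did not in CPM.

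**Figure D2:**
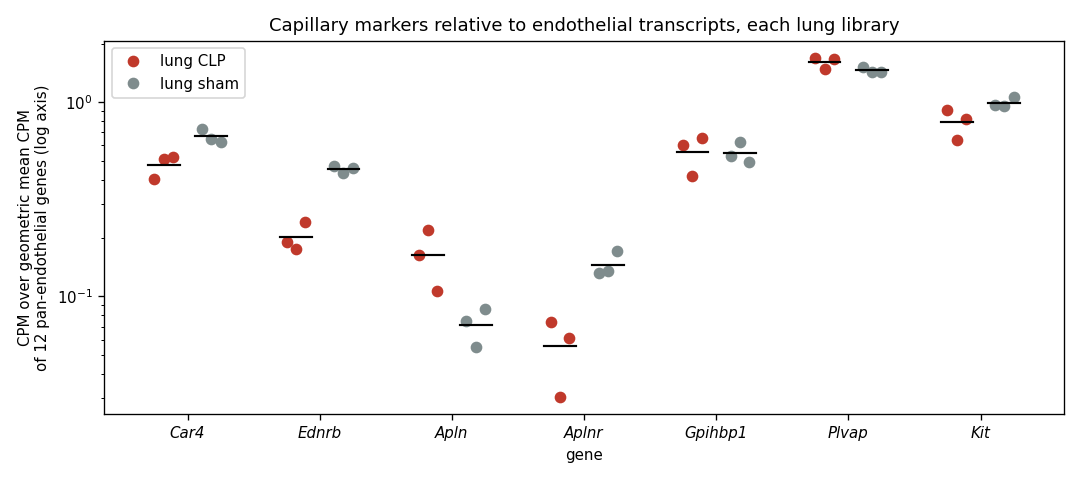
Ratio of each marker's CPM to the geometric mean CPM of 12 pan-endothelial genes (log axis) in the 3 CLP and the 3 sham lung libraries; points are libraries and lines are means. The CLP points lie below the sham points for Car4, Ednrb, Aplnr and Kit, above them for Apln, and among or close to them for Gpihbp1 and Plvap.

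The other markers of the 2 capillary types gave a similar mixed picture. Of 7 further aerocyte genes tested in lung, 5 fell, 1 rose and 1 did not pass the test, with a median log2 change of -0.98. Kdr, the main receptor for vascular endothelial growth factor, averaged 201 ± 7.89 CPM in CLP lung and 489 ± 55.5 CPM in sham lung (log2 change -1.28 ± 0.11, adjusted p = 8.84e-05, edgeR). Tbx2, a T-box transcription factor, averaged 148 ± 17.6 CPM in CLP lung and 292 ± 30.7 CPM in sham lung (-0.98 ± 0.12, adjusted p = 0.000377, edgeR). Fibin, Rprml and Emp2 were the other genes that fell. Rprml was at a low level, averaging 0.689 CPM in CLP lung and 1.81 CPM in sham lung. Prx, periaxin, rose by 0.37 ± 0.09 (adjusted p = 0.00998, edgeR), and Chst1 had a log2 change of 0.14 (adjusted p = 0.276, edgeR).

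Of 6 further general capillary genes, 3 fell, 1 rose and 2 did not pass the test, with a median of -0.80. Ptprb, a phosphatase that restrains Tie2 and VEGF receptor signalling, fell by 1.12 ± 0.18 (adjusted p = 0.0016, edgeR), and Cd93, a C-type lectin-like receptor of endothelium and myeloid cells, rose by 0.90 ± 0.18 (adjusted p = 0.00378, edgeR). Cxcl12 and Btnl9 fell as well, Btnl9 at a low level of 0.686 CPM on average in CLP lung and 1.61 CPM in sham lung. Of the 12 pan-endothelial genes, 6 fell, 3 rose and 3 did not pass the test, with a median of -0.26. The angiopoietin receptor gene Tek (-1.54) and the adrenomedullin receptor component gene Ramp2 (-1.44) were the lowest of those that fell, and the tight junction gene Cldn5 (0.88) was the highest of those that rose. Ramp2 shares exon sequence on the same strand with Vps25, so its counts are uncertain.

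Markers of other cells moved as well. Of 7 neutrophil genes tested, 7 rose, with a median of 2.35, S100a9 by 3.31 and Il1r2 by 3.48. Of 7 alveolar type 1 genes, 3 fell and none rose (median -0.34, Rtkn2 -2.21, Ager -0.52), and of 7 alveolar type 2 genes 1 fell and 1 rose (median -0.05, Abca3 -0.42, Napsa 0.23). Of 6 arterial genes, 3 fell and none rose (median -0.70, Hey1 -1.91, Sox17 -1.13). Of 6 venous genes, 3 rose and 3 fell (median 0.13, Ackr1 5.20, Vcam1 0.92), and of 6 lymphatic genes 4 fell and 1 rose (median -0.37, Lyve1 1.71, Mmrn1 -0.43). Of 7 pericyte and smooth muscle genes, 4 fell and none rose (median -0.26, Notch3 -0.75, Cox4i2 -0.51), and of 7 fibroblast genes 1 rose and none fell (median 0.04, Pdgfra 0.59, Col1a1 -0.28 and not called). Of 5 liver sinusoidal genes tested in lung, 1 rose and 2 fell (Fcgr2b 2.43, Stab2 -1.23), and of 6 hepatocyte genes 1 rose (Ass1 0.63, Ttr 0.25 and not called). Ackr1 shares exon sequence on the same strand with Cadm3, so its counts are uncertain. All values are log2 changes, with calls by edgeR at an adjusted p below 0.05, and their part in the capillary results was not tested.

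**Figure D3:**
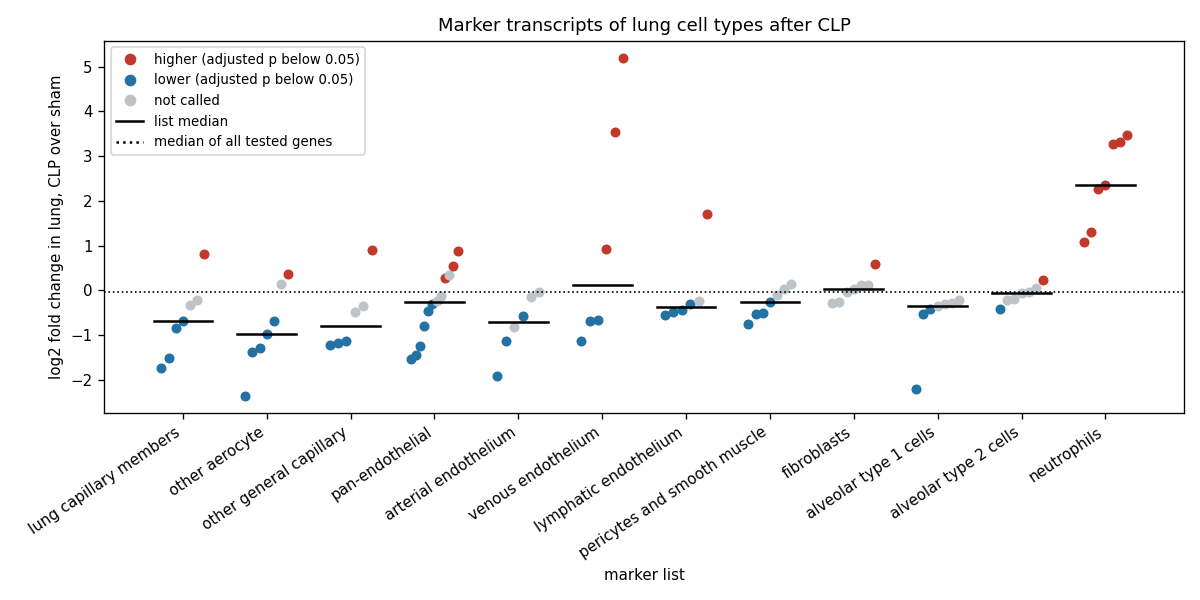
Log2 change in lung, CLP over sham, of each tested gene in 12 marker lists; points are genes coloured by their edgeR call, solid lines are list medians and the dotted line is the median of all tested genes (-0.03). The medians of the 3 capillary lists lie at -0.68, -0.98 and -0.80, and that of the neutrophil list at 2.35.

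In liver the 7 markers were lower than in lung, and Car4 was called higher and Gpihbp1 lower after CLP. Sham lung stood above sham liver by 13.1-fold for Ednrb, 12.3-fold for Gpihbp1, 15.3-fold for Plvap and 35.1-fold for Kit. Car4, Apln and Aplnr had 0 counts in the 3 sham liver libraries. In CLP liver, Car4 had 19, 18 and 10 counts, or 1.46, 1.44 and 1.03 CPM. Against a floor of 3 counts over the sham group this was at least 19.6-fold higher, and Car4 was called (adjusted p = 0.000775, edgeR). In liver Car4 met the low-count filter only through its CLP libraries, so a call in the other direction was not possible. On library totals, Car4 in CLP liver came to 1.05% of its level in CLP lung. The 7 alveolar type 2 genes had a median of 0.109% by the same measure (0.0649% to 13.1%), and the 7 alveolar type 1 genes a median of 0.248% (0.0426% to 283%). Of 6 alveolar type 2 genes tested in liver, 5 also rose and none fell (median 2.27). Of 4 alveolar type 1 genes tested there, 2 rose and none fell (Ager 1.83, Gprc5a 3.80). Of 7 neutrophil genes, 7 rose (median 3.14), with a summed level of 152 to 208 CPM in CLP liver and 16.2 to 18.8 CPM in sham liver. Whether the Car4 reads in CLP liver came from liver endothelium or from any other source was not tested.

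Gpihbp1 was 8.31, 10.4 and 11.7 CPM in CLP liver, against 14.8, 14.5 and 13.9 CPM in sham liver. The groups did not overlap, and the log2 change was -0.51 ± 0.15 (adjusted p = 0.0222, edgeR). The call was lost in 1 model of all 12 libraries (adjusted p = 0.0525) and without CLP replicate 1 (0.0671), sham replicate 1 (0.0679), sham replicate 2 (0.0665) or sham replicate 3 (0.0528), all by edgeR.

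Ednrb was 24.8, 8.91 and 15.7 CPM in CLP liver, against 8.15, 12.7 and 12.7 CPM in sham liver. The groups overlapped and the test was not passed (log2 change 0.56 ± 0.37, adjusted p = 0.261, edgeR). Without CLP replicate 2 it was called higher (0.87, adjusted p = 0.0335, edgeR). Kit was 7.001, 5.78 and 6.26 CPM in CLP liver, against 4.29, 10.6 and 12.6 CPM in sham liver. The CLP values lay inside the sham range (log2 change -0.53 ± 0.36, adjusted p = 0.267, edgeR), and without sham replicate 1 Kit was called lower (-0.86, adjusted p = 0.00763, edgeR). Plvap was 39.9, 27.4 and 29.8 CPM in CLP liver, against 32.8, 30.1 and 29.3 CPM in sham liver, with groups that overlapped (0.08 ± 0.15, adjusted p = 0.705, edgeR).

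Apln had 3, 4 and 0 counts and Aplnr 1, 2 and 2 counts in CLP liver, too few to be tested. Of the 5 markers tested in liver, 1 was called higher, 1 lower and 3 were not called. The 1 called higher was Car4, which met the filter only through CLP liver. Of all 12392 genes tested in liver, 21.4% were called higher and 21.0% lower. Every CLP library was higher for Car4 and lower for Gpihbp1 among the 5, against 28.1% and 27.6% of all genes tested. The median log2 change of the 5 was 0.08, against -0.01 over all genes. Other endothelial lists moved in liver. Of 7 sinusoidal genes, 7 fell (median -1.18), of 4 other general capillary genes 3 fell and 1 rose (median -1.66), of 3 other aerocyte genes 1 fell, and of 12 pan-endothelial genes 4 fell and 3 rose (median -0.29).

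A single model with all 12 libraries asked whether the response differed between the organs, as the lung change less the liver change. Ednrb fell in lung relative to liver by 2.10 ± 0.41 on the log2 scale (adjusted p = 0.00474, edgeR). Car4 also fell relative to liver (adjusted p = 2.37e-05, edgeR). Its fitted difference of -8.79 depends on the prior count, since sham liver had none. Of the other 5 markers none passed, at -6.51 ± 2.42 for Aplnr (adjusted p = 0.0933), -4.43 ± 2.29 for Apln (0.223), -0.31 ± 0.19 for Plvap (0.317), -0.17 ± 0.41 for Kit (0.850) and 0.17 ± 0.26 for Gpihbp1 (0.719), by edgeR. The fits for Aplnr and Apln rest on 5 and 7 liver counts. Aplnr passed with DESeq2 (-5.27, adjusted p = 0.00215), with limma-voom (-4.25, adjusted p = 0.0247) and, in edgeR, without lung CLP replicate 2 (-6.14, adjusted p = 0.0142). Of 16111 genes tested, 8.89% were called higher in this difference and 8.84% lower, while 0 and 2 of the 7 markers were.

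**Figure D4:**
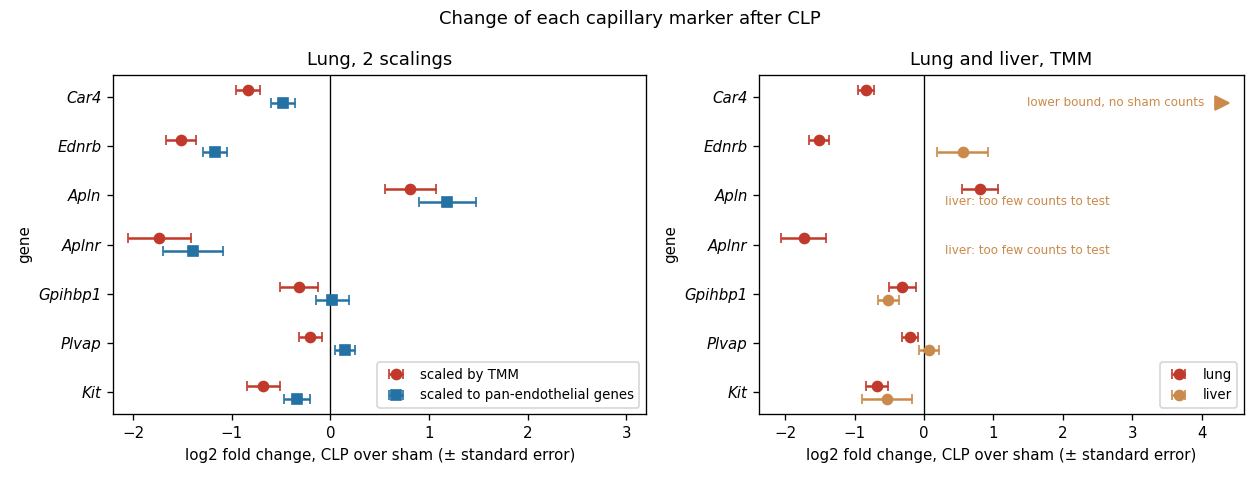
Log2 change of each marker, CLP over sham, with standard errors: on the left in lung under TMM scaling (circles) and scaled to pan-endothelial genes (squares), on the right in lung and liver under TMM scaling, n = 3 libraries a group. Ednrb, Aplnr and Car4 lie below 0 and Apln above 0 under both scalings in lung; the triangle is the lower bound for Car4 in liver.

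The partners of the 7 genes were a list of 19 ligands, receptors, lipases and enzymes, of which 13 were tested in lung. There 5 fell, 1 rose and 7 did not pass the test, with a median of -0.30, against -0.03 over all genes. Of all 15441 genes tested in lung, 24.9% were called lower and 23.9% higher. On the endothelin side, Edn3 encodes endothelin 3, a ligand of the B receptor, and averaged 12.6 ± 2.47 CPM in CLP lung and 21.6 ± 1.34 CPM in sham lung (log2 change -0.77, adjusted p = 0.00327, edgeR). Edn1, endothelin 1, averaged 58.4 ± 10.7 CPM in CLP lung and 42.2 ± 12.1 CPM in sham lung (0.47 ± 0.22, adjusted p = 0.116, edgeR). Neither the A receptor Ednra (-0.10) nor the converting enzyme Ece1 (-0.29) passed the test.

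Kitl, the gene of stem cell factor, averaged 217 ± 32.9 CPM in CLP lung and 318 ± 38.2 CPM in sham lung (-0.55, adjusted p = 0.00952, edgeR). Both receptor and ligand were thus called lower, though neither under every alternative, with Kitl at -0.66 to -0.20. Of the genes around Gpihbp1, the endothelial lipase gene Lipg rose (0.51 ± 0.11, adjusted p = 0.00596, edgeR) and Lmf1, needed for lipase maturation, fell (-0.73, adjusted p = 0.00249, edgeR). The calls of Lipg and Lmf1 were lost under some alternatives, with log2 changes of 0.40 to 0.87 and -0.84 to -0.37. Lpl itself averaged 573 ± 55.1 CPM in CLP lung and 705 ± 155 CPM in sham lung and was not called (-0.30, adjusted p = 0.170). Nor were its inhibitor gene Angptl4 (0.27) and the fatty acid receptor gene Cd36 (-0.37). Car14, another membrane carbonic anhydrase, averaged 4.40 ± 1.86 CPM in CLP lung and 17.8 ± 1.34 CPM in sham lung (-2.03, adjusted p = 0.000466, edgeR), a fall beside that of Car4. Vegfa, whose receptor gene Kdr fell, had a change of -0.35 (adjusted p = 0.0183, edgeR), a call that was lost under some alternatives. Nos3, endothelial nitric oxide synthase, was not called (0.89, adjusted p = 0.0685, edgeR). Exons of Edn1, Ednra, Nos3 and Car14 overlap genes on the other strand, and the strand setting of the counting is not given.

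In liver, 14 partners were tested, and 4 rose, 1 fell and 9 did not pass the test. Of all 12392 genes tested in liver, 21.4% were called higher and 21.0% lower. Edn1 averaged 2.82 ± 1.18 CPM in CLP liver and 0.384 ± 0.0763 CPM in sham liver (log2 change 2.86, adjusted p = 0.001, edgeR). Lpl averaged 49.0 ± 4.97 CPM in CLP liver and 21.3 ± 6.18 CPM in sham liver (1.204, adjusted p = 0.00193, edgeR), while Gpihbp1 had fallen there. Ednra (0.88) and Nos3 (0.96) also rose, and Angptl8, an inhibitor of lipoprotein lipase made by the liver, fell by 2.05 (adjusted p = 0.00311, edgeR).

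**Figure D5:**
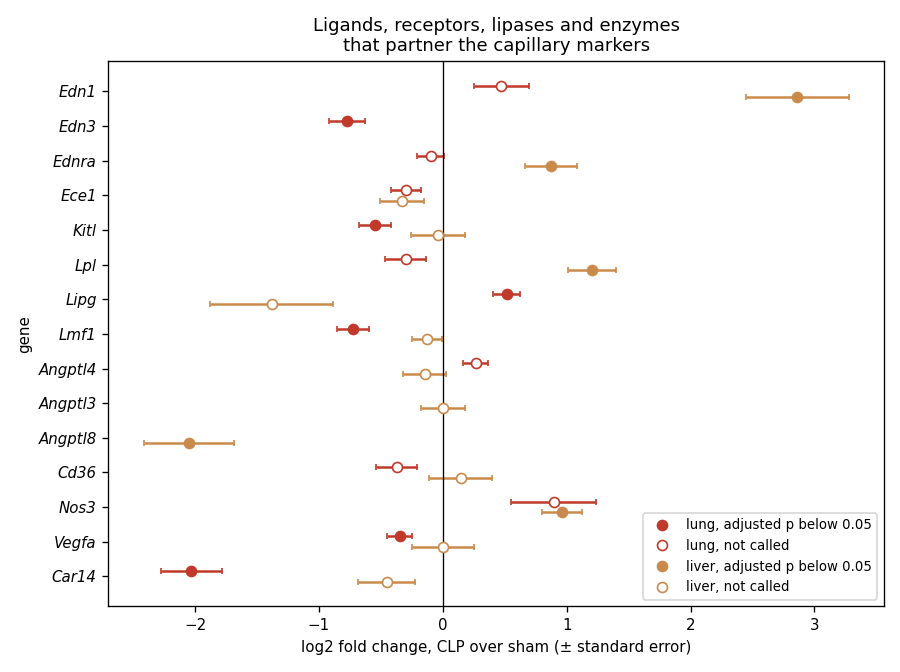
Log2 change, CLP over sham, of the tested partner genes in lung and in liver with standard errors (n = 3 libraries a group); filled points passed an edgeR adjusted p below 0.05. In lung Lipg rose and Edn3, Kitl, Lmf1, Vegfa and Car14 fell; in liver Edn1, Ednra, Lpl and Nos3 rose and Angptl8 fell.

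The genes most like each marker across the 12 libraries, after each organ was centred on its own mean, are given as a description. Libraries of both surgeries enter, so a shared response to CLP raises these values. For Ednrb they were Tspan13 (Pearson r = 0.969) and Adgra3 (0.961), for Aplnr Glg1 (0.971) and Pcdh17 (0.954), and for Kit Efnb2 (0.926) and Enpep (0.925). For Apln they were Ube2z (0.947) and Cfap44 (0.937), for Gpihbp1 Wdr59 (0.929) and Gpr182 (0.924), and for Plvap Mcoln3 (0.937) and Cystm1 (0.895). For Car4 they were Map4k3 (0.993) and Ywhab (0.9897). Map4k3 had opposite signs in the organs, with log2 changes of -0.47 in lung and 2.44 in liver. Its choice by r with Car4 over both organs favours such signs. Ywhab was at -0.04 in lung (adjusted p = 0.702, edgeR) and 0.63 in liver. For Car4, Apln and Aplnr, r also rests on liver libraries with few or no counts.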

How the data were processed

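RNA-seq was measured in 12 libraries of mouse lung and liver, 3 for each organ and surgery. Per the labels' protocols, total RNA came from tissue kept in RNAlater, and libraries were made with a stranded TruSeq kit for a NextSeq500. The values the authors deposited are raw counts per gene, not normalized. Per the submitters' processing notes, the build is mm39 and the tools include DESeq2, FastQC, featureCounts and STAR 2.7.10a, with no role or order stated. Which annotation release, strand setting and handling of multimapping reads were used is not given in the sources. Exons of Sox17, Abca3, Napsa, Notch3, Pdgfra and Prx, among other listed genes, also overlap genes on the other strand. A symbol was matched for 52081 identifiers and none for 3333.

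Counts were tested with edgeR 4.0.16 (R 4.3.3): its filter for low counts (at least 10 in enough libraries of a group and 15 in all), TMM scaling, and the two-sided quasi-likelihood test, in 6 libraries for each organ, or in 12 for the difference between organs. P-values were adjusted by the Benjamini-Hochberg method over all genes tested, with a threshold of 0.05. Standard errors are the log2 change over the root of its F statistic, an approximation. Levels per kilobase use GENCODE M21 exon lengths, of an older build. Alternatives were other scalings, no filter, DESeq2 1.42.0, limma-voom (limma 3.58.1), a replicate block, 1 model of all libraries, scaling to pan-endothelial genes and leaving out each library. Chi-square per degree of freedom between replicates was 5.28 to 37.6, so they differed by more than counting error and each was counted as 1 library.

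The 7 genes and the lists were chosen with earlier results of these data known. All 7 and the partners tested in lung are named, and from each other list the 2 genes with the lowest p in lung, with further genes of the capillary and endothelial lists and partners called in liver, chosen after their values were seen. The 2 most alike genes were taken by Pearson r of log2 CPM (prior count 2), without predicted genes.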

Additional observations from a re-analysis of the deposited data

Results flagged for a closer look

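The response to CLP differed between lung and liver, by the test of the difference in edgeR with adjusted p-values over all genes, for 2 of the 7 markers and 6 of 16 partners tested. Over all 16111 genes tested, 8.89% were called higher and 8.84% lower in this difference. The log2 change in lung minus that in liver was -8.79 for Car4 (adjusted p = 2.37e-05), a size that rests on 0 counts in sham liver, and -2.10 for Ednrb (adjusted p = 0.00474). It was -2.44 for Edn1 (adjusted p = 0.00682), -1.004 for Ednra (0.00685), -1.53 for Lpl (0.00216), 1.87 for Lipg (0.0286), -0.62 for Lmf1 (0.0265) and -1.60 for Car14 (0.00896). For Lipg, sham liver was spread at 14.5 ± 8.62 CPM, against 5.59 ± 1.02 CPM in CLP liver (SD, n = 3 each). The calls of Lipg and Lmf1 were lost under some alternatives, with log2 differences of 1.46 to 2.34 and -0.71 to -0.45. Those of Edn1, Ednra, Lpl and Car14 were kept under all. No cause of these differences was tested.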

How the results depend on the processing

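Car4, Ednrb and Aplnr were called lower in lung under all 15 alternatives, with log2 changes of -0.94 to -0.48, -1.66 to -1.17 and -2.02 to -1.37. The number of markers called higher in lung was 0, against 1, with upper-quartile scaling, library totals, no low-count filter and the replicate block, and 0 to 1 with a library left out. In liver it was 2, against 1, with no low-count filter, Apln being the second, and 1 to 2 with a library left out. The number called lower in liver was 0, against 1, in 1 model of 12 libraries, and 0 to 1 with a library left out. Liver genes called higher numbered 1689 with library totals, against 2647. Besides Apln and Kit, the lung calls of Kitl, Lipg, Lmf1, Vegfa, Abca3, Ager, Btnl9, Cox4i2, Egfl7, Mmrn1 and Napsa were lost under some alternatives. Some genes that were not called, such as Angptl4, passed under some. In the difference between organs, Lipg and Lmf1 lost their calls under some alternatives. Relative to pan-endothelial genes, the lung changes took the other sign for Gpihbp1 (0.0208), Plvap (0.15), Col1a1 (0.0739), Ednra (0.26), Ece1 (0.0521), Lpl (0.0559), Vegfa (0.0039), Tmem100 (0.0041), Pecam1 (0.12), Egfl7 (0.0520) and Eng (0.24). With a library left out, Ttr in lung ran from -0.14 to 1.41, turning without sham replicate 2 or 3, and Ednra from -0.17 to 0.0644, turning without sham replicate 3. In liver Plvap turned to -0.0202 with upper-quartile scaling and -0.12 with library totals, and ran from -0.10 to 0.19 with a library left out, turning without CLP replicate 1. The difference between organs for Kit ran from -0.43 to 0.24, turning without lung CLP replicate 2 or liver sham replicate 1. The causes were not tested.

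Upper-quartile scaling moved the median of all genes to -0.14 in lung, and library totals moved it to -0.13 in lung and -0.21 in liver. The labels do not say whether same-numbered libraries, lung and liver included, share a mouse. Correlations of same-numbered deviations from group means were 0.0225, 0.0924 and 0.0414 in lung, 0.0513, 0.153 and 0.173 in liver, 0.133, 0.0506 and 0.144 between CLP lung and CLP liver, and -0.0126, 0.0424 and 0.0730 between sham lung and sham liver. Not every pair was above 0.1 in any of these, so no pairing was assumed, though in liver and between the CLP organs every library correlated best with its own number, a hint from the data and not the design. With the replicate block, Apln in lung lost its call at 0.80 (adjusted p = 0.0895, edgeR), 1 of 8 alternatives of 15 that did so, and the difference between organs for Aplnr was -6.62 (adjusted p = 0.0456, edgeR). That difference also passed with a block of surgery and number (adjusted p = 0.0131), which was added after seeing the data, with DESeq2 (0.00215), with limma-voom (0.0247) and, in edgeR, without lung CLP replicate 2 (0.0142). Depth limits Car4, Apln and Aplnr in liver.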
